A study of Mus musculus with 66 samples.

Results

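Nup62cl, Hspb1 and Plod2 are the 3 members described here, of 9481 transcripts in the RNA table. They were chosen by their RNA values, as high in CV organoids and near absent in EN organoids, so their RNA values below are a description and carry no test. The study grew mouse small intestinal organoids, which carried a GFP-DTR allele at Lgr5 (Lgr5 GFPDTR/+), in media that shift the balance of stem cells and enterocytes. ENR medium contained EGF, Noggin and R-Spondin-1 and gave organoids of mixed cell types, CV organoids had 1 mM valproic acid and 3 μM CHIR99021 added to ENR and were enriched for stem cells, and EN organoids grew in ENR without R-Spondin-1 and were depleted of stem cells. CHIR99021 inhibits GSK3 and so raises Wnt signalling, and valproic acid inhibits histone deacetylases. The stem cell enrichment and the compounds came together in every CV library, so their parts in any difference from CV cannot be told apart. By the paper's methods, CV organoids also spent more days in their medium than EN organoids did in theirs. Between CV and EN, time in the medium and the medium itself cannot be told apart either.

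RNA-seq and ATAC-seq, which measures open chromatin, had 4 libraries per culture. ChIPmentation of the histone marks H3K27ac, H3K4me3 and H3K27me3 was used in 3 libraries per culture and mark, and that of the transcription factor Hnf4g in 1 library per culture. The labels do not say whether replicates came from separate cultures or mice, so the spread between them, which is all that p-values measure here, may be technical. RNA libraries held between 5630951 and 8859744 expected counts. The RNA table was limited to transcripts whose proteins the study had quantified. Epithelial markers were high in all 3 cultures, at a summed level of 10800 to 13700 CPM (counts scaled to the library total). The 8 stem cell markers summed to 1580 to 1670 CPM in CV, 3200 to 3340 CPM in ENR and 84.1 to 94.6 CPM in EN. The gap between the CV and ENR sums lay mostly in Olfm4, which stood at 1230 CPM ± 61.7 in ENR against 10.9 ± 6.42 in CV, and Slc12a2, which stood at 1430 ± 20.8 against 948 ± 24.4 (SD, n = 4). By edgeR's test (adjusted p under 0.01), 5 of the 8 were lower in CV than in ENR, 2 were higher and 1 was not called. The lower ones were Olfm4, Slc12a2, Smoc2, Axin2 and Lgr5, the last at 129 CPM ± 4.88 in ENR and 90.1 ± 3.62 in CV. The higher ones were Cd44, which went from 36.1 CPM ± 3.15 in ENR to 147 ± 9.75 in CV, and Sox9, which went from 27.1 ± 3.12 to 34.7 ± 3.25. Every stem cell marker kept a measurable level in ENR.

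The members do unrelated work in the cell. Plod2 is a lysyl hydroxylase that modifies collagen lysines in the endoplasmic reticulum and so sets which crosslinks the collagen can form, and it is a known target of the hypoxia response. Hspb1 is a small heat shock protein, a chaperone that holds unfolding proteins without using ATP and that binds actin, and heat shock factor induces it through heat shock elements in its promoter. Nup62cl is named for its likeness to the C-terminal part of Nup62, a nucleoporin of the central channel of the nuclear pore.

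The promoter sequences are shown because Hspb1 held heat shock elements in a stretch that was open in CV organoids, and because the Nup62cl promoter lay outside every called region. RefSeq promoters of build GRCm38.p6 matched 2 of the 3 members, Hspb1 and Nup62cl, and the 250 bases before each start are given 5′ to 3′ on the gene's strand. Capitals mark matches, on either strand, to motifs searched as letters.
Hspb1, GRCm38.p6 chr5:135887669-135887918, plus strand: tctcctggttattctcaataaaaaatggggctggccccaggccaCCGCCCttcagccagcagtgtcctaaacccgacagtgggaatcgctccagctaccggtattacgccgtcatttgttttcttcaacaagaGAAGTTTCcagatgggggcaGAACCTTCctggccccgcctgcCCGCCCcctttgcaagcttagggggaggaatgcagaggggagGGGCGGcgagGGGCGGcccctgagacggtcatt
Nup62cl, GRCm38.p6 chrX:140062569-140062818, minus strand: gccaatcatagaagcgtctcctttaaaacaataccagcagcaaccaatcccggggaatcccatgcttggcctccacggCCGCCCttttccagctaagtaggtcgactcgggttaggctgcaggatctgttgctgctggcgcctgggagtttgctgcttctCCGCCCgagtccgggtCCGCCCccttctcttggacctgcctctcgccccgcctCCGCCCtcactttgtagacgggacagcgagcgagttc

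Hspb1 held 2 matches to the heat shock element GAANNTTC, GAAGTTTC from 117 to 110 bases and GAACCTTC from 97 to 90 bases before the start. Of the 32851 promoters in the table, 6.69% held at least 1 match to GAANNTTC in the same 250 bases. Both promoters held 4 matches each to the GC box GGGCGG or its reverse complement, a motif found in 32.7% of all promoters. Neither held the hypoxia response core ACGTG (16.6% of promoters), the Tcf/Lef letters CTTTGAT (3.21%) or CTTTGAA (4.46%), TTCNNGAA (7.17%) or TATAAA (12.4%). The printed bases were 59.2% G or C for Hspb1 and 60.8% for Nup62cl, where the median promoter had 52.4%. Each 250-base stretch matched the mm9 genome of the chromatin data once and without a mismatch, at chr5:136363539-136363788 for Hspb1 and chrX:136597108-136597357 for Nup62cl. All 250 bases of the Hspb1 stretch lay inside a region of the chromatin table, and none of the Nup62cl stretch did.

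All 3 members were abundant in CV and at or near 0 in ENR as well as in EN, so that the measured pattern was CV against both other cultures. Counts of Plod2 (NM_001142916.1) in the 4 libraries were 893, 935, 971 and 890 in CV, 7, 2, 3 and 8 in ENR, and 0, 1, 1 and 1 in EN. Nup62cl (XM_006528563.3) had 186, 196, 223 and 245 counts in CV, 0, 1, 1 and 0 in ENR, and 0 in each EN library. Hspb1 (NM_013560.2) had 153, 118, 145 and 158 counts in CV, 0, 0, 0 and 1 in ENR, and 0 in each EN library. No ENR or EN library reached the lowest CV library for any member, and the CV libraries of each member lay close together.

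**Figure D1:**
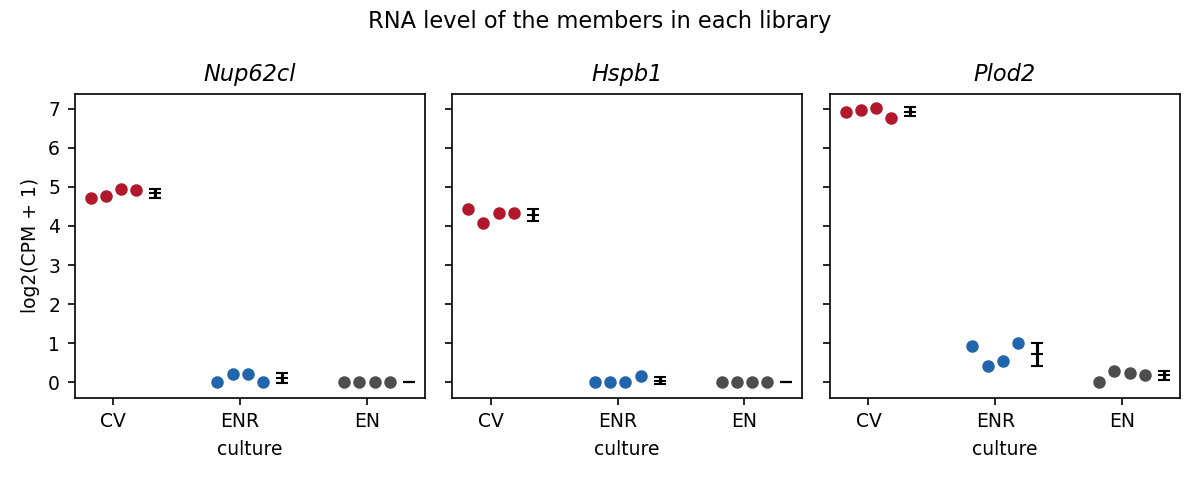
RNA level of each member in each library, as log2(CPM + 1), for the 4 libraries of CV, ENR and EN; bars beside the points are the mean ± SD. The CV points stand far above those of ENR and EN for all 3 genes, and in ENR Plod2 is the highest of the 3.

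Scaled to library size, Plod2 was at 120 CPM ± 9.34 in CV, 0.671 ± 0.331 in ENR and 0.134 ± 0.0939 in EN (SD, n = 4). Nup62cl was at 27.6 CPM ± 2.31 in CV and 0.0789 ± 0.0912 in ENR. Hspb1 was at 18.7 CPM ± 2.06 in CV and 0.0315 ± 0.0629 in ENR. These ENR levels of Nup62cl and Hspb1 rest on 2 and 1 counts summed over 4 libraries and were under the level that 3 counts give in any library, 0.361 to 0.642 CPM, so that at this depth they could not be told from absence.

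The CV to EN ratio of the summed, scaled counts was 987 for Plod2 (95% exact interval 337 to 4790), from 3689 counts against 3. With 0 counts in EN, Nup62cl was at least 227-fold higher and Hspb1 at least 154-fold higher in CV than in EN, taking 3 counts over the group of 4 libraries as the floor. Against ENR the ratio was 171 for Plod2 (110 to 280), 393 for Nup62cl (109 to 3250) and 531 for Hspb1 (94.9 to 21000). These intervals cover counting error only. They overlap widely, so the order of the 3 genes by ratio was not resolved. Single counts decided the ENR ratios of the 2 rarer members. Without ENR replicate 4, the library with the only Hspb1 count, that gene was at least 128-fold higher in CV, and the ratio for Nup62cl was 617 without ENR replicate 2 and 604 without ENR replicate 3.

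Between ENR and EN, Plod2 had 20 counts against 3, a ratio of 5.78 (1.72 to 30.4). Every ENR library had more Plod2 counts than any EN library, at 2 or more against 1 or fewer. Near absence in EN was part of how Plod2 was chosen, so these values are a description and the interval covers counting error only. Nup62cl and Hspb1 were at or under the floor in both cultures.

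On the TPM scale, which corrects for transcript length and so allows genes to be compared, Plod2 led in CV with 53.4 TPM ± 3.72, followed by Hspb1 with 40.3 TPM ± 4.46 and Nup62cl with 24.7 TPM ± 2.15 (SD, n = 4). Across the CV libraries, Plod2 ranged from 48.2 to 56.7 TPM, Hspb1 from 33.9 to 44.2 TPM and Nup62cl from 22.4 to 26.8 TPM. The 3 ranges did not overlap. On the scale of mRNA copies set from spiked-in RNA, means were 32.7 ± 6.64 for Plod2, 24.1 ± 5.79 for Hspb1 and 14 ± 1.38 for Nup62cl. On that scale the libraries of Plod2, 23.9 to 40, and of Hspb1, 20.3 to 32.6, overlapped, so their order was not resolved there. In such bulk samples, fewer cells that express a gene and less RNA per cell cannot be told apart.

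By the fitted log2 fold change that ranked transcripts from CV to EN, the members stood at 10.59 for Nup62cl, 10.03 for Hspb1 and 9.75 for Plod2, and these values depend on how the fit treats counts of 0. Just outside were Tnfrsf19 at 9.36, a TNF receptor family member that Wnt signalling induces, Rab34 at 9.04, a small GTPase of membrane trafficking, and Dpysl5 at 8.69. Tnfrsf19 had 84, 91, 77 and 111 counts in CV and 0 in EN, and in ENR it had 3, 4, 2 and 2 counts. The 3 next transcripts thus shared the absence from EN but had smaller CV to ENR ratios. These were 30.5 (16.9 to 61.7) for Tnfrsf19, 22.3 (12.6 to 43.6) for Rab34 and 23.3 (12.1 to 51.7) for Dpysl5, each below the interval of every member. Their ENR levels, at 0.398, 0.42 and 0.326 CPM, were above those of Nup62cl and Hspb1 but below the 0.671 CPM of Plod2.

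A wider class was set after its values were seen, as transcripts with 50 or more counts in every CV library and no more than 3 in any EN library. It held 29 transcripts, and its members differed in ENR. In 7, Nup62cl and Hspb1 among them, no ENR library had more than 3 counts. The other 5 of those were Tdrp, Fn1 (fibronectin), Crip2, Myh10 (a nonmuscle myosin heavy chain) and Tesc. In another 7 the ENR mean was at least 50% of the CV mean, among them the cell cycle and replication genes Ccne1, Pole2, Chaf1b and Cenpi. Plod2 was among the 15 that lay between, with an ENR mean of 0.558% of its CV mean. The first group was cut on ENR counts, not on this share. The share of Plod2 was below those of Myh10 (0.561%) and Tesc (1.29%) in that group. P3h1, a prolyl hydroxylase that also modifies collagen, was another of the 15, at 6.72%.

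**Figure D2:**
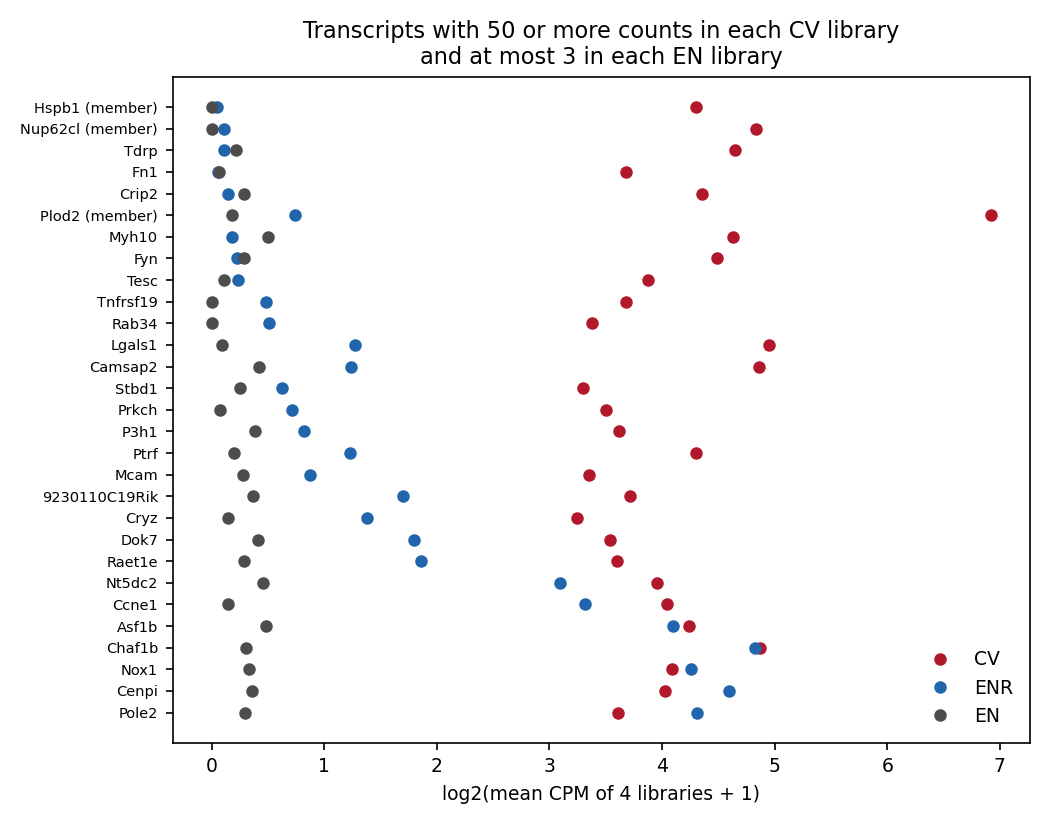
Mean RNA level in CV, ENR and EN, as log2(mean CPM of 4 libraries + 1), of the 29 transcripts with 50 or more counts in every CV library and no more than 3 in any EN library, ordered by the ENR mean as a share of the CV mean. The members lie in the upper part, where ENR sits near EN, whereas in the 7 lowest rows ENR sits near CV.

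The genes most like each member were taken by Pearson r of log2(CPM + 1) over the 12 libraries, a measure set mainly by the gap between cultures. Nup62cl was nearest to Aldh4a1 (r = 0.9983), a mitochondrial enzyme of proline breakdown, and to Hspb1 and Arxes2 (r = 0.998 each). Hspb1 was nearest to Nup62cl, Lgmn (r = 0.9978), a lysosomal protease, and Fn1 (r = 0.9975). Plod2 was nearest to Lgmn (r = 0.9966), Dync1i1 (r = 0.9963), a dynein intermediate chain, and Ldhb (r = 0.9961), a lactate dehydrogenase subunit. Likeness of shape did not mean likeness of level, since Lgmn kept 35.3 CPM in ENR and 34.1 CPM in EN beside 200 CPM in CV. The members correlated with each other at 0.995 to 0.998. An r of 0.99 or more was common, being reached by 46 transcripts for Nup62cl and 38 each for Hspb1 and Plod2.

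Genes related to the members were compared between CV and ENR with edgeR's quasi-likelihood test across 9288 transcripts, at a Benjamini-Hochberg adjusted p under 0.01. In that comparison 59.9% of all transcripts were called, 30.2% as higher in CV and 29.8% as higher in ENR, and the median log2 fold change was -0.01. All 3 members passed the filter on low counts, which their CV libraries alone were enough to meet.

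Collagen-modifying enzymes were higher in CV more often than lower. Of 15 tested without Plod2, 8 rose in CV against ENR, none fell and 7 were not called, with a median log2 fold change of 0.49. Among the uncalled were Loxl2, a lysyl oxidase family member, at -0.37 (SE 0.2, adjusted p = 0.11), and P4ha3, at -0.1 (SE 0.84, adjusted p = 0.92). The steepest were P3h1, by 3.85 on the log2 scale (SE 0.22, adjusted p = 9.2e-10), Plod1, a lysyl hydroxylase related to Plod2, by 3.49 (SE 0.18, adjusted p = 3e-10), and P4ha2, a subunit of collagen prolyl hydroxylase, by 2.23 (SE 0.18, adjusted p = 3.2e-08). Plod1 stood at 15.9 CPM ± 1.22 in CV, 1.4 ± 0.251 in ENR and 3.56 ± 0.865 in EN. Plod3, the third lysyl hydroxylase gene, rose by 0.89 (SE 0.06, adjusted p = 4.9e-09), from 46.5 CPM ± 1.25 in ENR to 86.1 ± 3.87 in CV. Both paralogs thus rose with Plod2 but kept a measurable level in ENR and EN.

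Hypoxia response genes were higher in CV than in ENR for 19 of 24 transcripts without Plod2, 1 was lower and 4 were not called, with a median of 0.76. This list shares Plod1, P4ha1 and P4ha2 with the collagen enzymes, and 2 of its transcripts belong to Aldoa. Its steepest rises were Plod1 (above), P4ha2 (above) and Bnip3, a mitochondrial protein of mitophagy, by 2.04 (SE 0.08, adjusted p = 1.1e-11). Hk2, the hexokinase of the first step of glycolysis, rose by 1.5 (SE 0.043, adjusted p = 3.6e-13), and Slc2a1, a glucose transporter, by 1.21 (SE 0.066, adjusted p = 3.9e-10). Car9, a carbonic anhydrase widely used as a hypoxia marker, was not called, at 111 CPM ± 1.94 in CV, 108 ± 2.74 in ENR and 198 ± 14.2 in EN. Kdm3a, a histone demethylase, fell by 0.51 (SE 0.043, adjusted p = 5.6e-08). Against EN the list divided, with 14 of 24 higher in CV and 8 lower, where 41.2% of all transcripts were higher in CV and 35.2% higher in EN. Of those 8, Ldha, Kdm3a, Arnt and Bnip3l lay above 0, by 0.03 to 0.15, when libraries were scaled to the spike-ins.

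**Figure D3:**
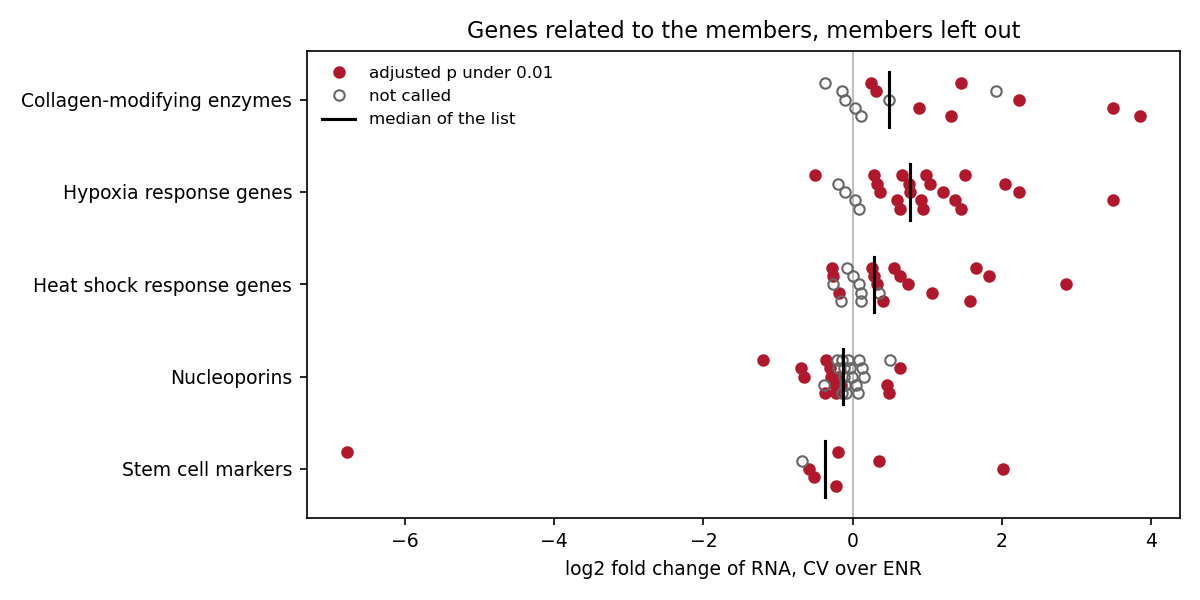
Log2 fold change of RNA, CV over ENR, of each tested transcript of 5 lists of genes, with the members left out; filled points passed the test (adjusted p under 0.01), open points did not, and black bars are list medians. The collagen, hypoxia and heat shock lists reach far to the right, the nucleoporins stay near 0, and Olfm4 among the stem cell markers lies at -6.78.

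Heat shock response genes were mixed. Of 23 transcripts without Hspb1, 12 rose in CV against ENR, 3 fell and 8 were not called, with a median of 0.28. The steepest were the Hsp70 genes Hspa2, by 2.86 (SE 0.17, adjusted p = 1e-09), and Hspa1b, by 1.82 (SE 0.16, adjusted p = 6.8e-08), and then Hspb11, by 1.65 (SE 0.17, adjusted p = 5.3e-07). Hspb11, at 17.3 CPM ± 1.37 in CV, 5.56 ± 1.67 in ENR and 6.08 ± 0.529 in EN, bears the family name but works in intraflagellar transport. The abundant constitutive chaperone Hspa8 fell by 0.28 (SE 0.029, adjusted p = 7.1e-07). Hsf1, the transcription factor of the heat shock response, was not called, with a log2 fold change of 0.11 (SE 0.12, adjusted p = 0.41).

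Nucleoporins did not rise with Nup62cl between ENR and CV. Of 32 transcripts, 3 were higher in CV, 11 lower and 18 not called, with a median of -0.13. Nup62 itself, the gene Nup62cl is named for, was at 40.1 CPM ± 5.05 in CV, 52 ± 4.02 in ENR and 17.9 ± 1.17 in EN, lower in CV than in ENR by -0.37 (SE 0.084, adjusted p = 0.0011). The largest differences were Nup37 at -1.2 (SE 0.1, adjusted p = 5.4e-08), Nup54, a partner of Nup62, at -0.69 (SE 0.065, adjusted p = 1.9e-07), and Gle1 at -0.65 (SE 0.11, adjusted p = 0.00013). Nupl1, the other partner of Nup62, rose by 0.46 (SE 0.071, adjusted p = 3.5e-05). Against EN, by contrast, 27 of the 32 were higher in CV, where 41.2% of all transcripts were. Between ENR and EN, 28 of the 32 were higher in ENR, with a median log2 fold change of 1.16 where that over all transcripts was 0.01. The collagen, hypoxia, heat shock and nucleoporin lists held 15, 24, 23 and 32 tested transcripts, some of them shared. Over these 4 lists, 54 transcripts were called between CV and ENR, 39 of them higher in CV. Of all transcripts, 59.9% were called and 30.2% were higher in CV. With libraries scaled to the spike-ins, 28 transcripts of the lists were called, 24 of them higher in CV, and none of the 54 changed direction.

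Stromal, immune and endothelial markers were low, and their sum was lowest in CV. The 12 transcripts summed to 5.42 to 8.89 CPM in CV, 9.31 to 10.5 CPM in ENR and 24.5 to 29.7 CPM in EN, with 7, 8 and 9 of them at 3 counts or fewer in each library of the culture. Of 8 tested between CV and ENR, 2 were higher in CV, 2 lower and 4 not called, where 30.2% of all transcripts were higher in CV and 29.8% higher in ENR. Individual markers differed: Des, a muscle intermediate filament, was at 2.79 CPM ± 0.911 in CV (14 to 29 counts) and at 0 counts in every ENR library, and Col1a1 was at 0.85 CPM ± 0.249 in CV and 0.145 ± 0.17 in ENR. Vim, at 2.96 CPM ± 0.309 in CV and 7.96 ± 0.665 in ENR, and the immune marker Ptprc, at up to 1 count in CV and up to 12 in ENR, were lower in CV. The part of such cells in the members' RNA was not tested.

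Chromatin values took no part in choosing the members, and so could be tested. By the paper's methods, harvested organoids were divided between the assays, so chromatin and RNA may come from the same cultures. The deposited table gives a normalised score, rounded to whole numbers, for each of 94469 regions of the union of peaks (mm9). A region was assigned to a member where its nearest protein-coding start site was that gene's and it lay in the gene or within 50 kb. By this rule Hspb1 had 13 regions, Plod2 had 7 and Nup62cl had none. Each dataset was tested with limma on log2(score + 1), with an adjusted p under 0.01 taken over all regions with a score above 0 in at least 3 libraries. The CV libraries alone were enough to meet this filter, and a peak in 1 library was enough for a region to enter the union. The Plod2 region chr9:92438027-92438118, for one, had ATAC scores of 7 to 9 in CV and a median of 0 in ENR and in EN. H3K27ac marks active promoters and enhancers, H3K4me3 marks promoters, and H3K27me3 marks chromatin silenced by Polycomb.

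Plod2 (mm9 chr9:92437061-92503266, plus strand) was far more open at its start in CV. The region chr9:92436728-92437664, which spans the start site and the first exon, had ATAC scores of 152, 118, 90 and 106 in CV, 14, 10, 18 and 10 in ENR, and 3, 4, 13 and 6 in EN. Every CV library stood above every library of the other cultures, while ENR and EN overlapped. The log2 difference was 4.12 (SE 0.31, adjusted p = 2.3e-08) against EN and 3.08 (SE 0.31, adjusted p = 4.2e-06) against ENR, the rank 7 and the rank 14 among the 94166 regions tested, counted from the largest gain in CV. Between ENR and EN the difference was 1.03 (SE 0.31, adjusted p = 0.02) and was not called. In the first intron, chr9:92437726-92437899 and chr9:92438027-92438118 were also more open in CV than in ENR, by 1.98 (SE 0.32, adjusted p = 0.00039) and 2.77 (SE 0.4, adjusted p = 0.00014).

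Hspb1 (mm9 chr5:136363789-136365433, plus strand) was more open at its start as well, at a lower score. The region chr5:136363521-136364005, which contains the printed promoter with both heat shock elements and the start site, had ATAC scores of 17, 15, 23 and 29 in CV, 2 in each ENR library, and 1, 1, 2 and 2 in EN. Every CV library was above every ENR and EN library. The log2 difference was 3.12 (SE 0.29, adjusted p = 2.3e-07) against EN, rank 134, and 2.83 (SE 0.29, adjusted p = 5.1e-06) against ENR, rank 28 of 94166. The next region, chr5:136364316-136364852 in an intron, had low scores in every culture, scores of 3, 2, 2 and 0 in CV, 2, 1, 1 and 3 in ENR and 3, 1, 1 and 0 in EN.

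Over all 20 regions of the members, 19 were tested in ATAC-seq. Between CV and ENR, 5 were higher in CV and none lower, where 2.41% of all regions were higher in CV and 5.52% higher in ENR. Between CV and EN, 7 were higher in CV and none lower, where 10.2% of all regions were higher in CV and 14.3% higher in EN. Neighbouring regions of 1 gene are not independent of each other. Beyond the start sites, the calls of Hspb1 lay upstream and downstream: chr5:136355759-136355999 had scores of 9, 12, 12 and 9 in CV, 11, 8, 5 and 7 in ENR and 1, 1, 3 and 1 in EN. Its CV and ENR libraries overlapped and lay above EN, and it was the only one of the 19 that was higher in ENR than in EN (log2 difference 1.83, SE 0.31, adjusted p = 0.00027), where 7.31% of all regions were. Downstream, chr5:136379502-136379975 was higher in CV than in ENR, by 1.22 (SE 0.27, adjusted p = 0.005), but not called against EN, where replicate 1 had 20 and the other three 9, 8 and 7.

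**Figure D4:**
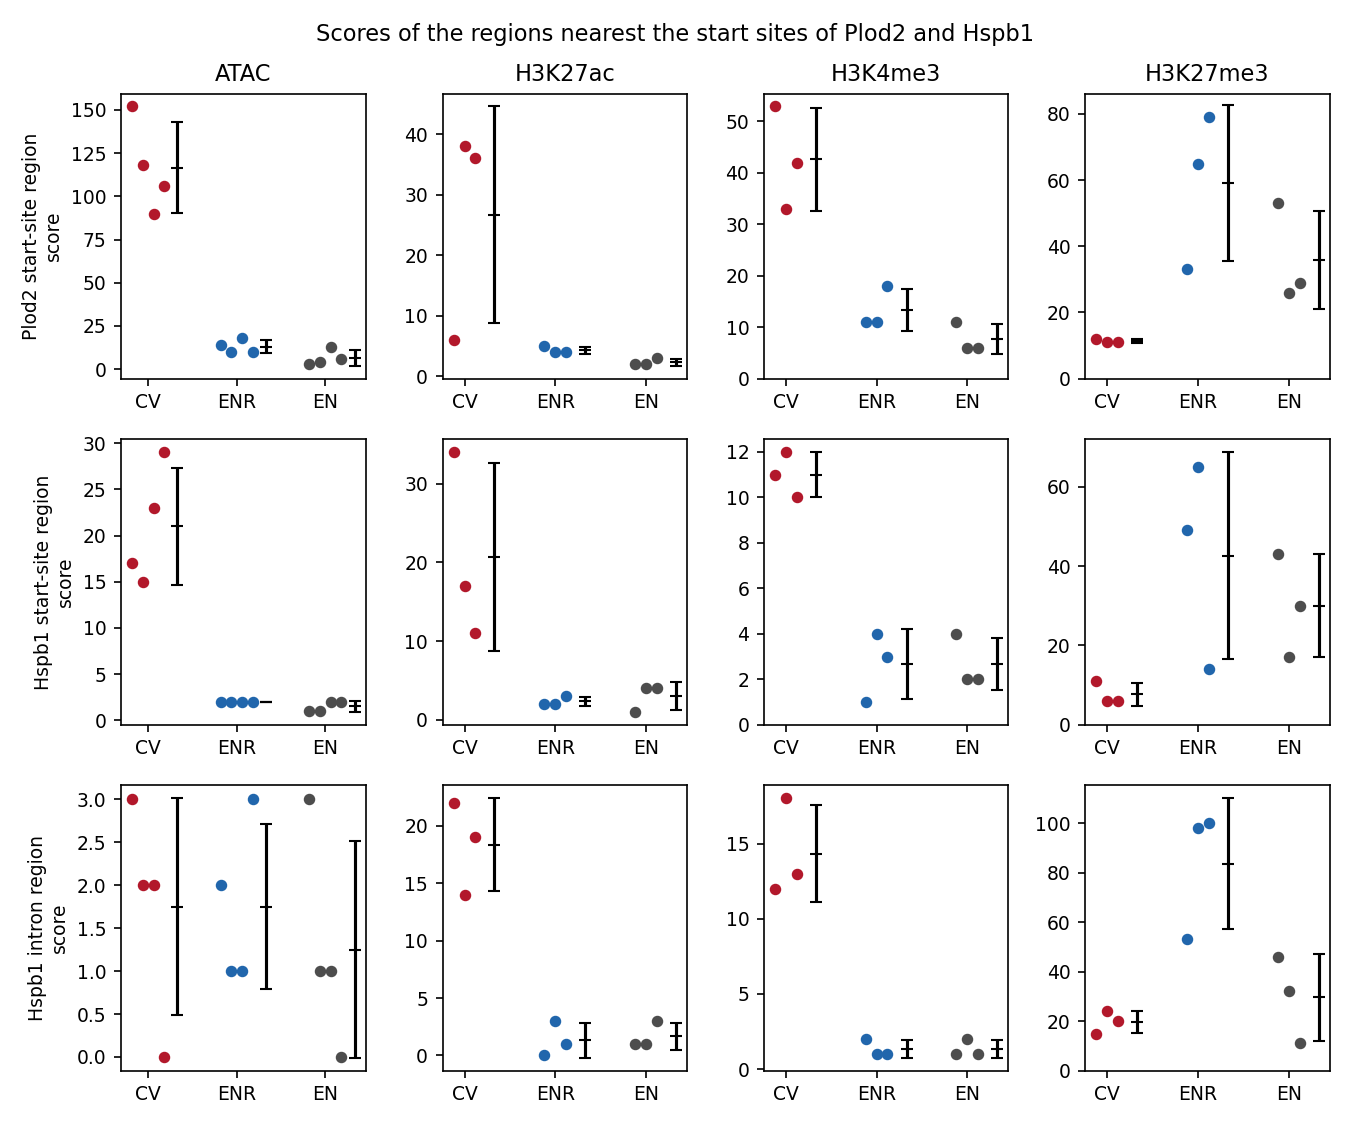
Normalised scores in each library at the start-site regions of Plod2 and Hspb1 and at the intron region of Hspb1, for ATAC-seq (4 libraries per culture) and the 3 histone marks (3 libraries per culture); bars beside the points are the mean ± SD, and each panel has its own axis. CV is above ENR and EN in ATAC-seq at both start sites and in H3K27ac and H3K4me3 in all 3 rows, and CV is below ENR in H3K27me3.

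Acetylation of H3K27 was higher in CV at both genes. At the Plod2 start-site region, H3K27ac scores were 6, 38 and 36 in CV, 5, 4 and 4 in ENR and 2, 2 and 3 in EN. The CV libraries were thus uneven, with replicate 3 barely above ENR and replicates 4 and 5 far above it. The difference from EN was 2.71 on the log2 scale (SE 0.64, adjusted p = 0.0062), and that from ENR was 2.02 (SE 0.64, adjusted p = 0.096) and not called. The call against EN was kept without CV replicate 3 (adjusted p = 0.00035) and lost without any other library, at adjusted p = 0.012 to 0.072.

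At Hspb1 the acetylation lay over the intron as well as the start. The region chr5:136364316-136364852 had H3K27ac scores of 22, 14 and 19 in CV, 0, 3 and 1 in ENR and 1, 1 and 3 in EN, with no overlap between CV and the others. The difference was 2.92 (SE 0.64, adjusted p = 0.0033) against EN and 3.25 (SE 0.64, adjusted p = 0.0039) against ENR, the latter being rank 6 of 94215 regions. The start-site region, at 34, 17 and 11 in CV, 2, 2 and 3 in ENR and 1, 4 and 4 in EN, differed by 2.41 (SE 0.62, adjusted p = 0.013) and 2.57 (SE 0.62, adjusted p = 0.022), and was not called. The call of the intron against ENR was lost when each of the 9 libraries was left out in turn (adjusted p up to 0.064), and that against EN without CV replicate 3 or 5 or EN replicate 2, 3 or 4 (adjusted p up to 0.04). Of the members' 20 regions, 2 were called higher in CV than in EN, where 0.538% of all regions were, and 1 higher in CV than in ENR, where 0.0658% were. Over all regions the median H3K27ac difference between CV and ENR was 0.33, beside 1.41 over the members' regions. Against EN these medians were 0.14 and 0.78. Between CV and ENR the median over all regions was alike in the other marks, at 0.33 in H3K4me3 and 0.32 in H3K27me3. Valproic acid was present in CV alone, and its part in these values was not tested.

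H3K4me3 was also higher in CV. The Plod2 start-site region had scores of 53, 33 and 42 in CV, 11, 11 and 18 in ENR and 11, 6 and 6 in EN, and the Hspb1 intron region had 12, 18 and 13 in CV, 2, 1 and 1 in ENR and 1, 2 and 1 in EN. In both, CV did not overlap the other cultures, which overlapped each other. Against EN the differences were 2.36 at Plod2 (SE 0.31, adjusted p = 0.0046) and 2.72 at the Hspb1 intron (SE 0.28, adjusted p = 0.0012). The Hspb1 start-site region, at 11, 12 and 10 in CV, 1, 4 and 3 in ENR and 4, 2 and 2 in EN, did not overlap either but was not called against EN (1.75, SE 0.37, adjusted p = 0.04), nor under any of the 16 alternatives. With intron regions of Plod2 added, 4 of 16 regions tested were higher in CV than in EN and none lower, where 0.651% of all regions were higher in CV. The Plod2 start-site call was kept without ENR replicate 4 and lost without any other library (adjusted p up to 0.056), and the Hspb1 call was lost without EN replicate 1, 2 or 4 (adjusted p up to 0.037).

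Between CV and ENR, limma called none of the 16 regions in H3K4me3 and 0% of all 77827 regions. Of the 16, 13 had an unadjusted p under 0.05, as did 13078 of all 77827 regions. All 16 values were above 0, with a median of 1.58 where the median over all regions was 0.33. In 12 of the 16 all CV libraries were above all ENR libraries, as they were in 14% of all regions tested. Leaving the trend of the spread out of the fit, or the filter on low scores, 3 regions were called, and at an adjusted p under 0.05 there were 4.

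**Figure D5:**
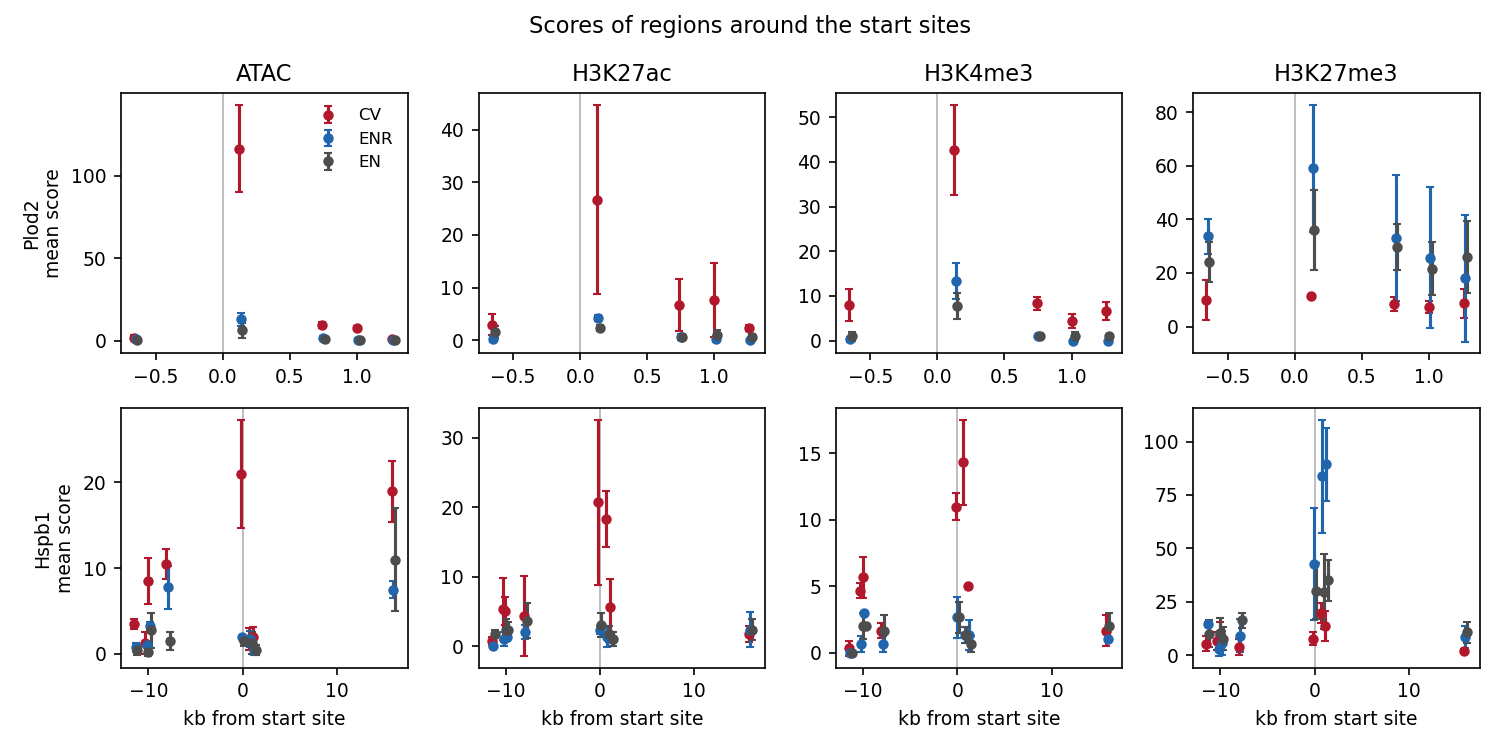
Mean score ± SD of each region in CV, ENR and EN (4 libraries in ATAC-seq, 3 in each mark) against the distance of the region's centre from the annotated start site (grey line) in kb, for regions of Plod2 within 1.5 kb before and 2.5 kb after it and of Hspb1 within 12 kb before and 17 kb after it. The CV signal in ATAC-seq, H3K27ac and H3K4me3 is highest at or just after the start of each gene, and H3K27me3 there is lowest in CV.

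H3K27me3 scores at both start sites were below those of ENR and EN in CV, without passing the test. At the Plod2 start-site region its scores were 12, 11 and 11 in CV, 33, 65 and 79 in ENR and 53, 26 and 29 in EN. At the Hspb1 start-site region they were 11, 6 and 6 in CV, 49, 65 and 14 in ENR and 43, 17 and 30 in EN. CV lay below every other library in both start-site regions, with narrow spread in CV and wide spread in the other cultures. The differences from ENR were -2.19 at Plod2 (SE 0.58, adjusted p = 0.031) and -2.13 at Hspb1 (SE 0.62, adjusted p = 0.066), and from EN -1.52 (SE 0.58, adjusted p = 0.32) and -1.79 (SE 0.62, adjusted p = 0.22). The Hspb1 intron region, at 15, 24 and 20 in CV, 53, 98 and 100 in ENR and 46, 32 and 11 in EN, had CV below ENR (-2, SE 0.56, adjusted p = 0.051) and overlapping EN (-0.38, SE 0.56, adjusted p = 0.9).

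One region passed the threshold in H3K27me3. This was chr5:136364940-136365127 in the body of Hspb1, at 6, 20 and 15 in CV, 73, 88 and 107 in ENR and 41, 40 and 24 in EN, with a difference between CV and ENR of -2.75 (SE 0.57, adjusted p = 0.0011). The call was lost without CV replicate 1, ENR replicate 3 or ENR replicate 4. It was 1 of 20 regions tested, where 0.263% of all regions were higher in ENR than in CV. Against EN, limma called none of the 20, where 0.163% of all regions were called. An unadjusted p under 0.05 was reached by 9 of the 20 and by 8577 of all 94466 regions tested. In all, 11 of the 20 regions had every CV library below every ENR library, as 4.13% of all regions tested did, and the median difference was -1.23 where that over all regions was 0.32. H3K27me3 scores were taken over regions extended to 1000 bp, so that close neighbours of Hspb1 and of Plod2 can share reads.

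Nup62cl (mm9 chrX:136541344-136597251, minus strand) could not be tested in this way. The divergent gene E230019M04Rik begins just upstream, and the nearest region, chrX:136598617-136598753, lies 1366 bp from the annotated start of Nup62cl and 1199 bp from that of E230019M04Rik. Its ATAC scores were 18, 2, 0 and 1 in CV, 3, 1, 1 and 0 in ENR and 76, 11, 1 and 0 in EN. They did not follow the RNA of Nup62cl and were high in replicates numbered 1 of CV and EN. A region inside the gene whose nearest start site is that of Rbm41, chrX:136563873-136564056, had ATAC scores of 4, 6, 5 and 5 in CV, 3, 1, 1 and 3 in ENR and 0, 2, 1 and 1 in EN. There the CV libraries were all above the others, at low scores. No region of the table covered the start of Nup62cl, although its RNA reached 186 to 245 counts per CV library.

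Hnf4g, a transcription factor of the enterocyte lineage, had 1 library per culture and so no replicate check. The libraries held 84340 reads over all regions in CV, 352600 in ENR and 1816497 in EN, and RPM below are reads scaled to these totals. At the Plod2 start-site region there were 8, 8 and 36 reads, or 94.9 RPM in CV (95% exact Poisson interval 41 to 187), 22.7 in ENR (9.8 to 44.7) and 19.8 in EN (13.9 to 27.4). At the Hspb1 start-site region there were 1, 4 and 27 reads, or 11.9 RPM (0.3 to 66.1), 11.3 (3.09 to 29) and 14.9 (9.8 to 21.6). The intervals overlapped at Hspb1, and at Plod2 those of CV and ENR overlapped while those of CV and EN did not. They cover counting error only and compare libraries, not cultures. The totals count only reads within regions, so they themselves depend on how much Hnf4g was bound in each library. The paper reports Hnf4g binding as nearly missing in CV and widespread in EN. A higher RPM in CV is therefore not a measure of more Hnf4g binding at Plod2.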

How the data were processed

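The authors deposited expected counts per transcript, estimated by kallisto (0.43.0 in the processing notes) on RefSeq transcripts, beside TPM values as kallisto gave them and mRNA copies, a signal that the authors scaled to ERCC spike-ins. The deposited chromatin table gives, for every peak of the union set, a score that the authors normalized between ATAC-seq or histone libraries, from reads aligned to mm9 with BWA, with duplicates removed with Picard and peaks called with MACS2 2.0; how the scores were normalized is not given in the sources used here. Hnf4g reads in these regions were deposited as raw counts.

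Expected counts were rounded and, with spike-ins removed, fitted in edgeR 4.0.16 (TMM, quasi-likelihood, transcripts above 0 in at least 4 of 12 libraries, all cultures in 1 fit). Chromatin scores were fitted in limma 3.58.1 on log2(score + 1) with its mean-dependent trend of the spread. R was 4.3.3, and DESeq2 1.42.0 served as an alternative. Groups and replicate numbers came from the sample labels, and 12 of 66 listed samples, without a column in the tables, were not analysed here. The members and the lists of related genes and markers were chosen with earlier results of these data known. Named genes are the members, the next 3 in rank, the 3 most correlated per member, the paralogs, the 3 largest called changes per list, and other list genes chosen after their values were seen. On simulated data edgeR found 92.5% of 200 transcripts changed 2-fold between CV and EN among 9276, with 3 false calls. limma found 97.5% of 200 regions raised 4-fold between CV and EN in ATAC-seq (94166 regions), 42.5% in H3K27ac (94215), 59.5% in H3K4me3 (77827) and 0.5% in H3K27me3 (94466). The raised regions were drawn only from those with a mean log2(score + 1) of at least 3. The Hspb1 start-site region in ATAC-seq lay below that, so these shares do not apply to it or to other regions with lower scores. False calls numbered 7, 0, 144 and 0, and all but 1 of the 144 were in regions with a mean log2(score + 1) of at most 1, where no region of the members was called.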

Additional observations from a re-analysis of the deposited data

Results flagged for a closer look

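Of 29 groups of 4 libraries with values above the floor, 5 held 1 library far from the other 3, all in ATAC-seq. The cut gives about 1 in 20 by chance for continuous, normally distributed values. ATAC-seq scores are small whole numbers with ties, so the chance rate here is not known. The gap to the nearest library as a share of the whole range was 0.889 in CV (18, 2, 0 and 1) and 0.855 in EN (76, 11, 1 and 0) at chrX:136598617-136598753 near Nup62cl. It was 0.875 in CV (8, 1, 0 and 0) at chr5:136348054-136348147 upstream of Hspb1. At chr5:136379502-136379975 downstream of Hspb1 it was 0.846 in EN (20, 9, 8 and 7) and 1 in ENR (7, 9, 7 and 7), where the library apart differed by 2 score units only. In CV and EN the library apart was replicate 1 each time.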

How the results depend on the processing

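The ATAC-seq calls at the start-site regions of Plod2 and Hspb1 were kept under all 19 alternatives, with log2 differences of 3.45 to 4.47 and 1.97 to 3.26 against EN and 2.75 to 3.24 and 1.86 to 2.97 against ENR. Calls in the histone marks, which rest on 3 libraries per culture, changed with single libraries and settings, and the cause was not tested. No called value of the 2 start-site regions or the Hspb1 intron region changed sign. At that intron region, values that were not called did: ATAC-seq went from 0.29 to -0.04 against EN without EN replicate 4, and from -0.1 against ENR to 0.33 without CV replicate 4 and 0.1 without ENR replicate 4, and H3K27me3 went from -0.38 to 0.03 against EN without EN replicate 1. With spike-ins, list genes called lower in CV than in EN turned to values above 0, namely Ldha (0.15), Bnip3l (0.09), Cdx1 (0.09), Dnaja1 (0.05), Arnt (0.04), Kdm3a (0.03) and Krt19 (0.01).

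Scaled to spike-ins, 2636 transcripts differed between CV and ENR in place of 5567 (1039 higher in CV and 1597 lower), and 28 list genes in place of 54. With spike-ins the CV to EN ratio was at least 302 for Nup62cl, at least 204 for Hspb1 and 1310 for Plod2, and with a floor of 1 count it was 682 and 461 for the first 2. Among regions with a mean score of at least 5, ATAC-seq called 3 member regions against EN and 3 against ENR, and H3K4me3 called 2 against EN. Without the trend, H3K27ac called 0 against EN and 0 against ENR, H3K27me3 called 0 against ENR, and H3K4me3 called 3 against ENR, as it did with no filter (3). After quantile normalization H3K27ac called 1 against EN and 0 against ENR. At an adjusted p under 0.05, H3K27ac called 2, H3K4me3 called 4 and H3K27me3 called 2 against ENR. Leaving out each library in turn gave 0 to 1 regions in H3K27ac against EN and 0 to 0 against ENR, 0 to 4 in H3K4me3 against EN and 0 to 3 against ENR, and 0 to 1 in H3K27me3 against ENR. H3K4me3 called 0 against EN without EN replicate 2 or 4 and 1 without EN replicate 1. A filter on a mean score of at least 1, chosen after seeing the data, changed none of the 8 counts of member regions.

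Replicate numbers were not taken as pairs, since the labels name no shared culture or day and in no dataset did every same-numbered pair correlate above 0.1. In ATAC-seq, however, all 12 same-numbered pairs correlated positively (mean 0.17, 0.0695 to 0.46, against a mean of -0.0557 for other pairs), a hint of pairing from the data and not from the design. Each culture's mean was taken out first, which ties the mean of the other pairs to that of the same-numbered pairs. The other pairs are therefore not a separate contrast. The mean was 0.0133 in RNA, -0.00276 in H3K27ac, 0.0501 in H3K4me3 and -0.00781 in H3K27me3. Samples correlated best with their own number in 8 of 24 comparisons in RNA, 16 of 24 in ATAC-seq, 4 of 10 in H3K27ac, 8 of 14 in H3K4me3 and 5 of 12 in H3K27me3. With the replicate block, 7064 transcripts were called between CV and EN, 5457 between CV and ENR and 52 list genes. The replicate block gave 8 ATAC-seq member regions against EN and 5 against ENR, and 0 in H3K27ac against EN, 0 against ENR, 0 in H3K4me3 against EN and 0 in H3K27me3 against ENR.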
